A study of Homo sapiens with 4 samples.

Results

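LEF1, its relatives among the T-cell factors (TCF7, TCF7L1 and TCF7L2), the TLE corepressors (TLE1, TLE2, TLE3, TLE4 and TLE5, the last formerly AES) and beta-catenin (CTNNB1) were examined in Jurkat cells, a human T-cell acute lymphoblastic leukemia line. The 10 genes were chosen by name, and every probe set annotated to exactly 1 of them was read, with the probe set of highest mean signal standing for its gene. Of the 10 genes, 9 had such a probe set, 31 probe sets in all, out of 19775 genes and 54613 probe sets on the array. No probe set was listed for TCF7, so TCF7 was not analysed here. The siLEF1 group was transfected with 100 nM of a pool of siRNA against LEF1, and the siNT group with 100 nM of a pool of non-targeting siRNA. Both groups were grown in the same medium, received HiPerFect as transfection reagent and were harvested after 24 h, and the labels name no other treatment or genetic change. Each group had 2 HG-U133 Plus 2.0 arrays, called biological replicates in the labels, which do not say whether they came from separate cultures. The p-values therefore measure only the spread between these arrays. The cells are a single leukemia line, and the methods describe the siRNA pool as directed at long and short isoforms of LEF1. Which isoforms each probe set reads is not given in the sources used here.

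LEF1 and the TCF factors bind the same short DNA motif through an HMG box and have little activity of their own. Bound by beta-catenin, which accumulates when Wnt signaling stops its breakdown, they activate genes, and bound by TLE proteins they repress them. TLE1 to TLE4 are long proteins whose WD-repeat domain recruits other repressors, whereas TLE5 is a short relative that lacks this domain and can oppose the long forms. In the thymus, LEF1 and TCF7 act together in the commitment of T cells and in the rearrangement and expression of T-cell receptor genes.

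The DNA windows below show transcript starts at which the motif letters CTTTGA or CTTTGT, the core read by the HMG box, were sought on both strands (as TCAAAG and ACAAAG on the reverse). The windows run from 250 bases before to 50 bases after a transcript start in RefSeq, build GRCh38.p14, and RefSeq gave 18 of them for the 10 genes. A match was found in 6 of these 18 (33.3%), against 9190 of all 35116 windows (26.2%). The window of LEF1 is printed because LEF1 is the target of the siRNA, and those of TLE4 and TLE5 because they hold a match, shown in capitals. They are LEF1 at chr4:108166252-108166551 on the minus strand, TLE4 at chr9:79571715-79572014 on the plus strand and TLE5 at chr19:3062446-3062745 on the minus strand. The TLE4 start is also the annotated start of its gene. The LEF1 start, by contrast, lies 2631 bases and the TLE5 start 471 bases inside theirs. The window at the annotated start of the LEF1 gene was not analysed here.
LEF1: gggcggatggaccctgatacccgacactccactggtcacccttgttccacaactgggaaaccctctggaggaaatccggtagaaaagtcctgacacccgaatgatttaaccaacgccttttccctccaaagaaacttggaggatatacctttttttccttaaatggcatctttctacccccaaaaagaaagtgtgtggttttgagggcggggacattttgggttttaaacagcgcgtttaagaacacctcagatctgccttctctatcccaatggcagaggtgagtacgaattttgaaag
TLE4: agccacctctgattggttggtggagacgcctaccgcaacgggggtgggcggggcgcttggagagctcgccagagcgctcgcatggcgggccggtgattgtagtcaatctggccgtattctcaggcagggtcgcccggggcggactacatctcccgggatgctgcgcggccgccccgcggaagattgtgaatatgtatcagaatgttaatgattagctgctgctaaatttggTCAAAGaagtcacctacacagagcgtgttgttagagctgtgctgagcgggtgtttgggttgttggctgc
TLE5: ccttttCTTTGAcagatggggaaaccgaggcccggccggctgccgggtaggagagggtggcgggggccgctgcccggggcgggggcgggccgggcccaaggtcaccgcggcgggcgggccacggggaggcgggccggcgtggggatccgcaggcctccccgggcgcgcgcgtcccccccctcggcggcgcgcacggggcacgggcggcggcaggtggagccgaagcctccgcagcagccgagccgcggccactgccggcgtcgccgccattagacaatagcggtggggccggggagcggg
The LEF1 window holds none of these letters. In the TLE4 window the match TCAAAG begins 19 bases before the transcript start (-19), and a further TLE4 window, not printed, holds 1 match as well. In the TLE5 window CTTTGA lies at its far end, at -244, and the other TLE5 window holds none. A window each of TCF7, TCF7L2 and TLE3 holds the letters, and those of TLE1, TLE2, TCF7L1 and CTNNB1 hold none. These matches are letters in a sequence and were not tested for binding.

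The arrays had medians of 4.84 to 4.85 on the log2 scale of the RMA values. RMA equalizes the distributions of arrays, so like medians are set by the processing. The median log2 difference, siLEF1 minus siNT, called the log2 difference below, was 0.04 over all probe sets. Of 10 T-cell markers, 9 lay over the median of all 4 arrays (the exception was CD2), and of 23 markers of B, myeloid, erythroid, epithelial and stromal cells 10 did, 1 of them over the upper quartile. No marker had an adjusted p under 0.05 from limma. The median signal of the 10 T-cell markers was 9.44 to 9.63 in siLEF1 cells against 9.07 to 9.55 in siNT cells, with a median log2 difference of 0.41. The 3 erythroid markers had median signals of 5.59 to 5.68 against 5.78 to 5.80 (median log2 difference -0.49). The 5 epithelial ones had 3.61 to 3.65 against 3.91 to 4.10 (-0.16) and the 5 B-cell ones 4.89 to 4.91 against 4.603 to 4.867 (0.01). The medians of these 3 lists did not overlap between the groups. Among single genes, by their brightest probe sets, 54.5% of all genes had groups without overlap. As a measure of RNA quality, the 5' minus 3' signal of ACTB was -1.08 and -1.55 in siLEF1 cells against -1.80 and -1.95 in siNT cells. That of GAPDH was -0.34 and -0.32 against -0.39 and -0.65. The groups did not overlap in either, but in GAPDH siNT replicate 1 lay close to the siLEF1 arrays. The part of the markers and of RNA quality in the differences below was not tested. Since whole cultures were measured, fewer cells of a kind and less RNA per cell cannot be told apart.

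None of the 31 probe sets was called lower or higher in siLEF1 cells (adjusted p under 0.05 from limma and a fold change over 2), a rule that 113 of the 54613 probe sets met (0.207%). At an unadjusted p under 0.05 there were 7 of 31, namely 4 lower and 3 higher, where the share over all probe sets was 15.6% (8.79% lower and 6.85% higher). The arrays of the groups did not overlap in 14 of the 31 (45.2%), with 7 on each side, where the share over all probe sets was 48.6% (21.2% lower and 27.4% higher). The largest difference downwards was that of LEF1 itself and the largest upwards was that of TLE1. The siNT arrays were the less even pair: in 22 of the 31 probe sets they lay farther apart than the siLEF1 arrays. This held over the whole array too, where the median gap over all probe sets was 0.21 between the siNT and 0.15 between the siLEF1 arrays. The siNT replicate 2 array was the highest or the lowest of the 4 arrays in 23 of the 31 (74.2%), against 62.5% over all probe sets.

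**Figure D1:**
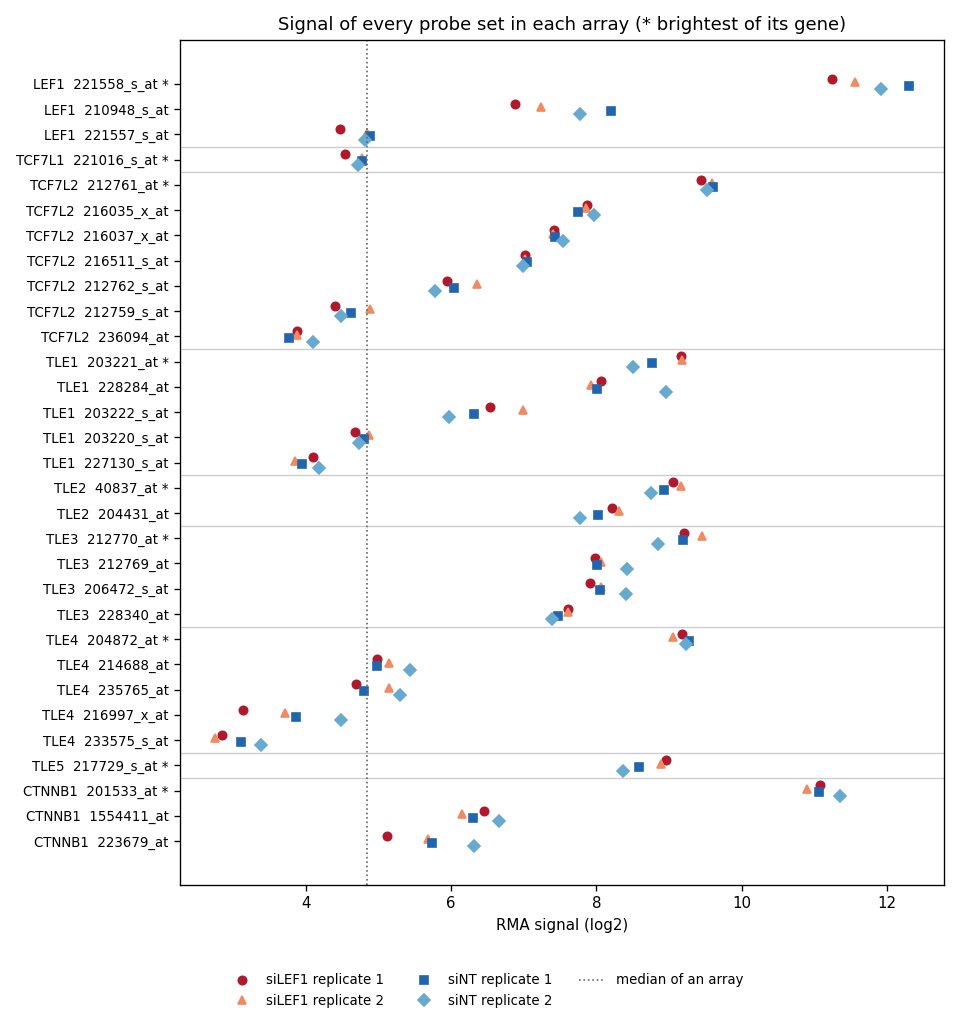
Log2 RMA signal (horizontal axis) of all 31 probe sets, grouped by gene (vertical axis), in each of the 4 arrays. Circles and triangles are the siLEF1 replicates, squares and diamonds the siNT replicates, the asterisk marks the brightest probe set of a gene and the dotted line the median of an array. In the 2 brighter LEF1 probe sets both siLEF1 arrays lie left of both siNT arrays, and the TCF7L2 arrays lie close together in most rows.

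LEF1, the factor that the siRNA was aimed at, had lower signals in siLEF1 cells in its brighter probe sets, without passing the test. In the brightest, 221558_s_at, the log2 signals were 11.24 and 11.56 in siLEF1 cells against 12.30 and 11.92 in siNT cells. Both siLEF1 arrays lay under both siNT arrays, and the gap between the nearest arrays of the groups was about as wide as the gap within each pair. Back from the log2 scale, the siLEF1 mean was 61.1% of the siNT mean (95% confidence interval 43.6% to 85.7%), a log2 difference of -0.71 ± 0.20 (SE, n = 2 arrays per group, adjusted p = 0.191 from limma). The middle probe set, 210948_s_at, had signals of 6.88 and 7.24 against 8.20 and 7.78, again with no overlap. Its siLEF1 mean was 52.6% of the siNT mean (36.8% to 75.1%), with an adjusted p of 0.141 from limma, the lowest of the 31. The dimmest, 221557_s_at, had 4.48 and 4.85 against 4.89 and 4.81, so that the groups overlapped. Of its 4 signals 3 lay under the median of their arrays, where a fall is hard to see.

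The brightest and the middle LEF1 probe set moved by different amounts within the arrays. The former exceeded the latter by 4.36 and 4.32 in siLEF1 arrays and by 4.10 and 4.14 in siNT arrays, a change of 0.22 between the groups. Although the groups did not overlap, the 2-sided exact permutation test over arrays gave p = 0.333, the smallest that 2 against 2 arrays allow. Leaving out each array in turn, the log2 difference of the brightest probe set ran from -0.90 (without siNT replicate 2) to -0.52 (without siNT replicate 1), and the adjusted p from limma in these fits ran from 0.224 to 0.765.

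The TCF relatives of LEF1 did not pass in any probe set. TCF7L1, which mostly acts as a repressor in the absence of Wnt signals, had 1 probe set with signals of 4.54 and 4.77 in siLEF1 cells against 4.78 and 4.72 in siNT cells. All 4 were dimmer than the median of their array, and the groups overlapped. TCF7L2, an effector of Wnt signaling best known from the gut, had 7 probe sets. The brightest, 212761_at, had signals of 9.44 and 9.59 against 9.61 and 9.52, and was over the upper quartile on all 4 arrays. The groups overlapped, and its siLEF1 mean was 96.7% of the siNT mean (95% confidence interval 75.0% to 125%, adjusted p = 0.918 from limma). Differences within these limits were not detectable with this number of arrays.

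Over the 7 TCF7L2 probe sets the log2 differences ran from -0.08 to 0.24, with a median of -0.01, and 6 of the 7 had overlapping groups. The highest value was that of 212762_s_at, with signals of 5.94 and 6.36 in siLEF1 cells against 6.04 and 5.77 in siNT cells. It rested on siLEF1 replicate 2, since siLEF1 replicate 1 lay between the siNT arrays. The probe set without overlap, 216037_x_at, differed by only -0.08.

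Whether LEF1 moved apart from TCF7L2 was compared within each array, which leaves the scaling between arrays out. LEF1 minus TCF7L2, both at their brightest probe set, was 1.80 and 1.97 in siLEF1 arrays and 2.70 and 2.40 in siNT arrays, a change of -0.66. LEF1 minus TCF7L1 was 6.70 and 6.79 against 7.53 and 7.20, a change of -0.62, but since TCF7L1 was dim on all 4 arrays this value mostly restates the LEF1 difference. In both comparisons the siLEF1 arrays lay under the siNT arrays. The 2-sided exact permutation p was 0.333 for each of these 2 comparisons, before and after Benjamini-Hochberg adjustment, and no lower value is possible here.

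**Figure D2:**
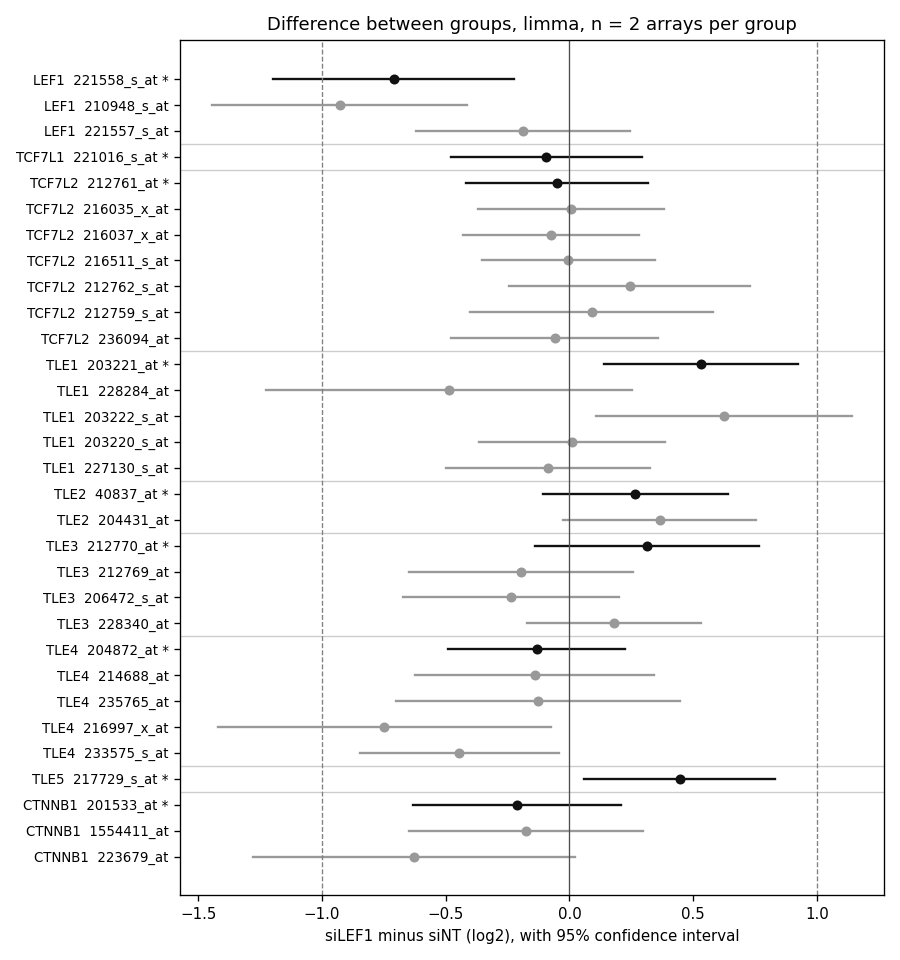
Difference siLEF1 minus siNT on the log2 scale (horizontal axis) with its 95% confidence interval from limma for all 31 probe sets (vertical axis). Black marks the brightest probe set of each gene, grey the others, and dashed lines a fold change of 2 in either direction. The points run from -0.93 (LEF1) to 0.62 (TLE1), and none lies beyond the dashed lines.

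Among the TLE corepressors, the brightest probe sets of TLE1, TLE2, TLE3 and TLE5 had higher signals in siLEF1 cells and that of TLE4 a lower one. None passed. In all 5 the groups did not overlap, where the share over the brightest probe sets of all genes was 54.5% (26.4% lower and 28.1% higher), and their log2 differences had a median of 0.31, against 0.02 over all genes. Over all 17 TLE probe sets the median was -0.09, with 9 lower and 8 higher means, so that the direction over the family depended on which probe sets were read.

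TLE1, a long corepressor, had signals of 9.17 and 9.17 in siLEF1 cells against 8.77 and 8.51 in siNT cells in its brightest probe set, 203221_at. The siLEF1 arrays were nearly equal and lay over both siNT arrays. Its siLEF1 mean was 1.45-fold that of siNT cells, a log2 difference of 0.53 ± 0.16 (SE, adjusted p = 0.211 from limma). The probe set 203222_s_at pointed the same way, with 6.54 and 6.99 against 6.31 and 5.98 (log2 difference 0.62, adjusted p = 0.251 from limma). The probe set 228284_at pointed the other way, with 8.06 and 7.93 against 8.01 and 8.96, a log2 difference of -0.49 (adjusted p = 0.505 from limma). That value came from siNT replicate 2 alone, whose signal stood 0.95 over that of siNT replicate 1, and without it the log2 difference was -0.01. Without siNT replicate 1 it was -0.96 (adjusted p = 0.0562 from limma). The remaining TLE1 probe sets, 203220_s_at and 227130_s_at, had overlapping groups and log2 differences of 0.01 and -0.09. Averaged over its 5 probe sets, TLE1 had a log2 difference of 0.12.

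TLE5, the short relative of the TLE proteins, had 1 probe set, 217729_s_at, with signals of 8.95 and 8.88 in siLEF1 cells against 8.59 and 8.36 in siNT cells. Both siLEF1 arrays lay over both siNT arrays. The siLEF1 mean was 1.36-fold that of siNT cells (log2 difference 0.44 ± 0.16, SE, adjusted p = 0.265 from limma). Its neighbor on chromosome 19 in RefSeq is TLE2, a long corepressor, which also had higher signals. In TLE2 the brightest probe set, 40837_at, had 9.05 and 9.16 against 8.93 and 8.76, and the other, 204431_at, had 8.22 and 8.31 against 8.02 and 7.77. The groups did not overlap in either, and the log2 differences were 0.27 (adjusted p = 0.470 from limma) and 0.37 (adjusted p = 0.349 from limma).

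TLE3, another long corepressor, was split between its 4 probe sets, each of which lay over the upper quartile on all arrays. The brightest, 212770_at, had signals of 9.20 and 9.46 in siLEF1 cells against 9.18 and 8.85 in siNT cells, and siLEF1 replicate 1 and siNT replicate 1 were almost equal. Its log2 difference was 0.31 (adjusted p = 0.482 from limma), that of 228340_at was 0.18, and those of 212769_at and 206472_s_at were -0.20 and -0.24. Thus 2 probe sets had higher and 2 lower means, none passed, and the average over the 4 gave 0.02. In 212769_at and 206472_s_at the highest signal was that of siNT replicate 2, at 8.42 and 8.40, and the other 3 arrays lay between 7.92 and 8.07.

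TLE4, the fourth long corepressor, had lower means in all 5 of its probe sets. The brightest, 204872_at, had signals of 9.18 and 9.06 in siLEF1 cells against 9.27 and 9.23 in siNT cells, with no overlap and a small difference (log2 difference -0.13, adjusted p = 0.727 from limma). Its 95% confidence interval reached from 71.2% to 117% of the siNT mean. The dim probe set 216997_x_at had 3.14 and 3.72 against 3.87 and 4.49, and 233575_s_at had 2.85 and 2.75 against 3.11 and 3.39. All of these signals were dimmer than the median of their array, so that the size of their log2 differences, -0.75 and -0.45, is uncertain. The other 2, 214688_at and 235765_at, overlapped, at -0.14 and -0.13, and turned to 0.09 and 0.12 without siNT replicate 2. In that fit 204872_at, 216997_x_at and 233575_s_at kept lower means, at -0.15, -0.44 and -0.30.

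CTNNB1, which encodes beta-catenin, the coactivator of LEF1, had overlapping groups in its brightest probe set, 201533_at. The signals were 11.08 and 10.90 in siLEF1 cells against 11.06 and 11.35 in siNT cells. The highest was that of siNT replicate 2, and without it the log2 difference went from -0.21 (adjusted p = 0.616 from limma) to -0.06. The probe set 1554411_at overlapped as well, with 6.46 and 6.15 against 6.30 and 6.66. In 223679_at the signals were 5.12 and 5.68 against 5.74 and 6.32, which did not overlap, although siLEF1 replicate 2 and siNT replicate 1 were nearly equal. Its log2 difference was -0.63 (adjusted p = 0.335 from limma). Levels of beta-catenin protein, which the destruction complex sets, were not measured on the arrays.

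**Figure D3:**
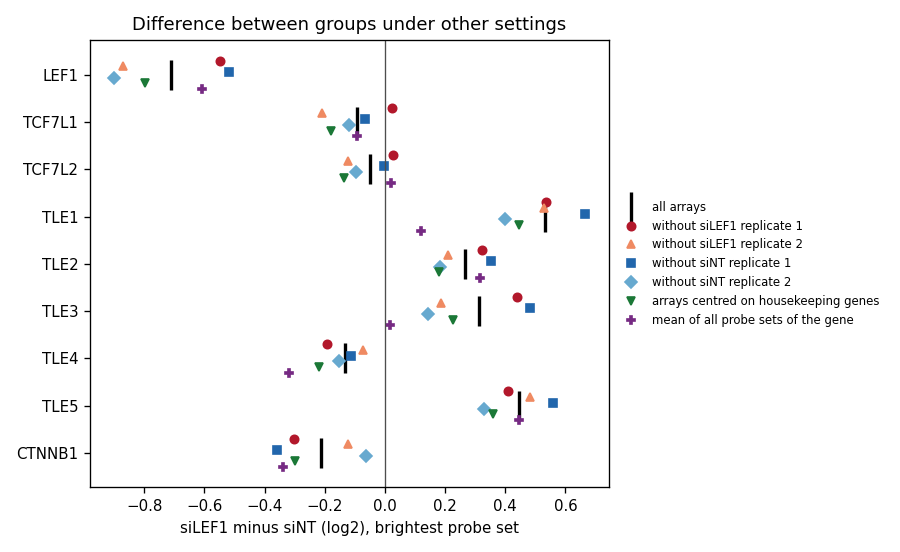
Log2 difference, siLEF1 minus siNT (horizontal axis), of the brightest probe set of each of the 9 genes (vertical axis). The bar is the value from all 4 arrays, and the symbols are the values without each array, with arrays centred on housekeeping genes, and from the mean of all probe sets of the gene. LEF1 stays left of 0 at -0.90 to -0.52, TLE1, TLE2, TLE3 and TLE5 stay right of 0, and TCF7L1 and TCF7L2 lie on both sides.

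Genes that act with these factors were read from 5 lists, each gene by its brightest probe set, and in none of the lists did a gene pass at an adjusted p under 0.05 from limma in either direction. Over all 19775 genes, 65 passed (0.329%), 18.5% had an unadjusted p under 0.05 (11.5% lower and 7.0% higher), and 54.5% had groups without overlap. Cofactors that TCF and LEF proteins use in the nucleus had a median log2 difference of 0.13 over 23 genes, of which 6 had an unadjusted p under 0.05, 3 lower and 3 higher. That median rested on the siNT arrays, at 0.33 without siNT replicate 1 and 0.06 without siNT replicate 2, and was 0.04 with arrays centred on housekeeping genes. CDC73, a subunit of the Paf1 complex that binds beta-catenin, had signals of 8.72 and 8.75 in siLEF1 cells against 9.23 and 9.75 in siNT cells (adjusted p = 0.177 from limma). The acetyltransferase gene CREBBP, a coactivator, had 9.26 and 9.27 against 9.63 and 10.03 (adjusted p = 0.232 from limma). In the other direction, the chromatin remodeling ATPase SMARCA4 had 11.18 and 11.18 against 10.81 and 10.57 (adjusted p = 0.230 from limma), and CTNNBIP1, which keeps beta-catenin from binding TCF and LEF proteins, had 7.79 and 7.98 against 7.58 and 7.02 (adjusted p = 0.285 from limma). In each of these 4 genes siNT replicate 2 was the array farthest from the siLEF1 pair.

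Receptors and parts of the destruction complex, which breaks down beta-catenin, had a median log2 difference of 0.03 over 25 of 27 listed genes, with 3 lower and 4 higher at an unadjusted p under 0.05. DVL1, which passes the receptor signal on, had signals of 9.05 and 9.001 in siLEF1 cells against 8.55 and 8.42 in siNT cells, and the kinase gene CSNK1A1, whose product primes beta-catenin for breakdown, had 11.45 and 11.47 against 11.84 and 12.08. For the Wnt receptor genes FZD2 and FZD7 the log2 differences were -0.72 and -1.47, and in FZD7 the siNT signals were 4.98 and 6.57, so that its value rested largely on siNT replicate 2. The median of this list changed sign, to -0.06, when the arrays were centred on housekeeping genes.

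Textbook targets of TCF, LEF and beta-catenin had a median log2 difference of 0.01 over 22 of 23 listed genes, with 2 lower and 3 higher at an unadjusted p under 0.05. The median turned to -0.07 with centring on housekeeping genes and -0.07 without siLEF1 replicate 1, and was 0.13 without siNT replicate 1. With dim probe sets filtered out it was -0.03, over the 9 genes left. In 8 of the 22 all 4 signals lay under the array medians, where a fall can be missed. JUN, an AP-1 subunit, had signals of 9.89 and 9.65 in siLEF1 cells against 11.42 and 12.67 in siNT cells (adjusted p = 0.0918 from limma), with siNT arrays that were far apart. ID2, which blocks basic helix-loop-helix factors, had 9.94 and 9.78 against 10.47 and 11.37. MYC, a growth-promoting factor, had higher signals in siLEF1 cells, 11.42 and 11.15 against 10.61 and 10.20 (adjusted p = 0.139 from limma), as had the factor gene SP5, with 6.50 and 6.30 against 5.90 and 5.89. AXIN2, NKD1 and RNF43, feedback inhibitors of the pathway, had log2 differences of -0.03, 0.04 and 0.05. The mean signals of NKD1 and RNF43, 5.49 and 5.72, lay under the filter on dim probe sets, against 7.36 for AXIN2. These genes were picked out here after their values had been seen. Other inhibitors of the pathway on this list, picked out likewise, were ZNRF3 at 0.41 and NOTUM at -0.22. DKK1, at 0.15, and APCDD1, at -0.06, had all 4 signals under the array medians.

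Factors that act beside LEF1 or TCF7 at T-cell enhancers had a median log2 difference of 0.12 over 12 of 13 listed genes, with 1 lower and 3 higher at an unadjusted p under 0.05. The median was 0.24 without siNT replicate 1 and 0.04 with centring on housekeeping genes. Without probe sets ending in _x_at or _s_at it was 0.02, over the 5 genes left. BCL11B, a factor of T-cell commitment, had signals of 11.09 and 11.24 in siLEF1 cells against 10.38 and 9.74 in siNT cells (log2 difference 1.11, adjusted p = 0.123 from limma). The ETS factor gene ELF1 had 10.03 and 10.11 against 10.68 and 10.88 (log2 difference -0.72, adjusted p = 0.130 from limma). TCF3, which encodes an E protein and is no relative of LEF1 despite its name, and MYB each had a log2 difference of 0.59. Of factors that bind TLE proteins, 7 of 8 listed were measured, with a median of 0.04. This median turned to -0.05 with centring on housekeeping genes and to -0.04 with the filter, over the 5 genes left. It was -0.01 without siNT replicate 2 and -0.01 with the mean of all probe sets of a gene. HES1, a repressor that recruits TLE, had 8.90 and 8.88 against 9.21 and 10.31 (adjusted p = 0.301 from limma), and again siNT replicate 2 was the outlying array. HES6, HHEX and PAX5 had log2 differences of 0.26, -0.12 and 0.10. RUNX1, on both of these lists, has no probe set annotated to it alone.

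**Figure D4:**
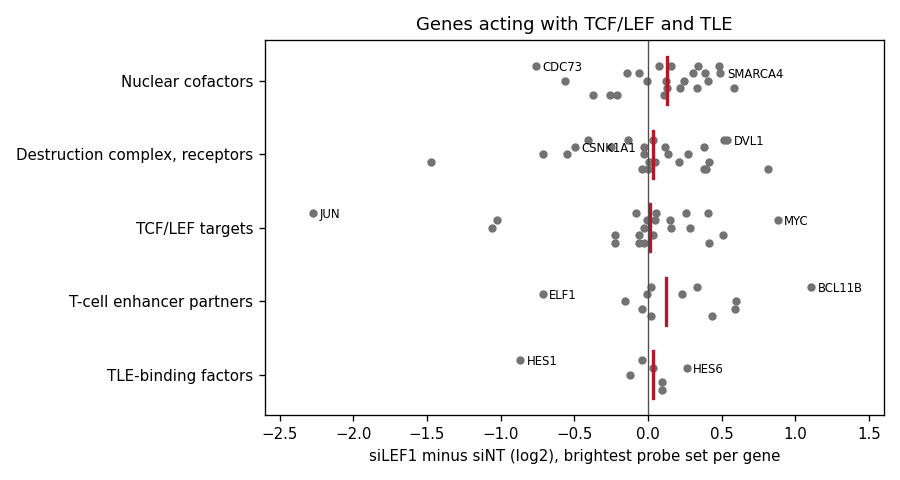
Difference siLEF1 minus siNT on the log2 scale (horizontal axis) of each gene, by its brightest probe set, in the 5 lists (vertical axis). The red bar is the median of a list, between 0.01 and 0.13, and the labelled genes are those with the smallest p in each list. JUN lies farthest left at -2.28 and BCL11B farthest right at 1.11.

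Without siNT replicate 1, limma called many more probe sets over the whole array than with all 4 arrays. Calls in that fit are therefore not read as a result about these lists. Some of the list genes were called in it as well. They were FZD7, FGF18, ID2, JUN and HES1 with lower values, and BCL11B with a higher one. In that fit the lone siNT array was replicate 2, and it was assumed to vary like the siLEF1 pair. The log2 differences were then -2.90 for JUN, -2.27 for FZD7, -1.89 for FGF18, -1.51 for ID2, -1.42 for HES1 and 1.43 for BCL11B. Against siNT replicate 1 alone they were -1.65 for JUN, -0.68 for FZD7, -0.17 for FGF18, -0.61 for ID2, -0.32 for HES1 and 0.79 for BCL11B, and none of the 6 passed. With all 4 arrays FGF18 had a log2 difference of -1.03 (adjusted p = 0.396 from limma). None of the 31 probe sets of LEF1, TCF, TLE and beta-catenin genes passed in it.

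The genes whose pattern over the 4 arrays was most like that of the brightest LEF1 probe set were sought among 9598 probe sets with a mean signal of at least 8. Likeness was the root mean square difference between deviations from each probe set's own mean. The closest were HDDC3, a gene for a nucleotide phosphohydrolase, at 0.0946, the zinc-finger gene ZNF302 at 0.0988 and RBM45, which encodes an RNA-binding protein, at 0.115. HDDC3 had signals of 7.95 and 8.07 in siLEF1 cells against 8.94 and 8.68 in siNT cells. As in LEF1, siLEF1 replicate 1 was the lowest array and siNT replicate 1 the highest. With 4 arrays such a likeness is a description of these arrays.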

How the data were processed

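Jurkat RNA was measured on 4 arrays, 2 siLEF1 and 2 siNT, grouped by the sample titles. Signal extraction and RMA normalization were done by the authors with Expression Console (version 1.1 per the submitters' processing notes), which gives the deposited log2 values. RMA equalizes the distributions of arrays, so a global shift would not be seen, and the arrays in that run are not given in the sources used here. Raw signals were not used, and the number of arrays limits the precision.

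From these values, limma 3.58.1 (R 4.3.3) fitted a group effect to each of 54613 probe sets, without the 62 controls, and moderated its 2 residual degrees of freedom with 4.30 prior ones. Tests were 2-sided with Benjamini-Hochberg adjustment. The thresholds for a call (adjusted p of 0.05, fold change of 2) are those of the study's methods, which compare 3 groups. Log2 differences are siLEF1 minus siNT. The model was tested on simulated data with independent noise, which held no deviation shared across the probe sets of an array.

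Symbols came from the platform annotation, updated by Entrez number (21304 of 21359 found). Of the probe sets, 41091 had 1 symbol, 1801 several and 11721 none listed. Promoter windows came from RefSeq.

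The genes and the lists were chosen with earlier results of these data known. The named genes are all probe sets of the 10 genes, in each list those that passed and up to 4 with the smallest p, and the 3 patterns closest to LEF1. AXIN2, NKD1, RNF43, ZNRF3, NOTUM, DKK1, APCDD1, FGF18 and LEF1-AS1 were named outside this rule, after their values had been seen. Alternatives were a filter at a mean signal of 6, eBayes with trend and robust settings, an F test without moderation, centring on array medians or on 12 housekeeping genes, a replicate block, each array left out, removal of 15499 probe sets ending in _x_at or _s_at, the mean of a gene's probe sets or its brightest in siNT, and fold changes of 1.5 or none.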

Additional observations from a re-analysis of the deposited data

How the results depend on the processing

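LEF1 kept its sign and did not pass under any alternative that gave it a value, with log2 differences of -0.80 (arrays centred on housekeeping genes) to -0.61 (mean of its probe sets), and of -0.90 to -0.52 with each array left out. Its adjusted p ran from 0.123 to 0.765, and all 3 of its probe sets end in _s_at, so the fit without such probe sets gave no value. The number of called probe sets among the 31 was 0 in every fit, the crossed pairing included (the filter kept 20 of them, and 15 end in neither _x_at nor _s_at), with 7 at an unadjusted p under 0.05 with all arrays, 5 with the filter, 6 with housekeeping centring or the replicate block, 1 in the F test without moderation and 1 without _x_at and _s_at probe sets. Over all probe sets, an unadjusted p under 0.05 was held by 8538 of 54613 with all arrays and 5284 of 19383 with the filter. The number was 8403 with housekeeping centring, 7756 with the replicate block and 4393 in the F test without moderation. Without _x_at and _s_at probe sets it was 5562 of 39114. The within-array change of LEF1 minus TCF7L2 was -0.63 and of LEF1 minus TCF7L1 -0.52 from the means of all probe sets, and -0.81 to -0.52 and -0.78 to -0.45 with each array left out. The log2 difference of TCF7L2 changed sign with the mean of its probe sets (0.022), and with single arrays left out it ran from -0.12 to 0.025 and that of TCF7L1 from -0.21 to 0.024. The mean of all probe sets moved TLE1 from 0.53 to 0.12, TLE3 from 0.31 to 0.02, TLE4 from -0.13 to -0.32 and CTNNB1 from -0.21 to -0.34, all with the same sign. Without siNT replicate 2, TLE3 had 0.14 and CTNNB1 -0.06.

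Over all probe sets, the 100 lower and 13 higher calls became 4 and 1 with the filter on dim signals, 0 and 0 in the F test without moderation (4393 at an unadjusted p under 0.05), 259 lower with housekeeping centring and 20 higher with trend and robust settings. With each array left out, the counts ran from 0 to 1287 lower and from 0 to 595 higher: limma called 1287 and 595 without siNT replicate 1, and 0 in the other 3 fits (3688, 4623 and 6232 at an unadjusted p under 0.05 without siLEF1 replicate 1, siLEF1 replicate 2 and siNT replicate 2). The replicate block gave 977 lower and 120 higher, passed JUN and FZD7 in the lists and none of the 31 probe sets. Deviations of same-numbered arrays from their group means had a weak negative correlation (r = -0.15 across probe sets). With 2 arrays per group this value is the same for both replicate numbers. The crossed pairing, chosen after seeing the data, gave 763 lower and 159 higher. There the LEF1 probe set 210948_s_at had an adjusted p of 0.0428 from limma, with a fold change under 2. The cause of these shifts was not tested.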

Other observations

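LEF1-AS1, a noncoding RNA gene next to LEF1 in RefSeq, was looked at after its values had been seen. Its probe set 243362_s_at gave 8.004 and 7.998 (log2 RMA) in siLEF1 cells against 8.10 and 7.86 in siNT cells, and 243363_at had 7.62 and 7.89 against 7.78 and 7.19. The groups overlapped in both. The log2 differences were 0.02 (95% confidence interval -0.37 to 0.40, adjusted p = 0.974 from limma) and 0.27 (-0.29 to 0.83, adjusted p = 0.634 from limma). Neither interval reaches the log2 difference of -0.71 of the brightest LEF1 probe set, but both overlap the interval of that probe set (-1.20 to -0.22). A difference between the LEF1 and LEF1-AS1 changes was not itself tested.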
